A study of Mus musculus with 32 samples.

Results

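The genes described here encode the subunits of the respiratory chain and of ATP synthase, from both the nuclear and the mitochondrial genome, in the liver and in 3 segments of the small intestine of mice lacking ketohexokinase (Khk KO) and of wild-type (WT) mice. Ketohexokinase phosphorylates fructose in the opening step of fructose breakdown, and the series asked how this pathway acts on iron homeostasis. The members were chosen by name: protein-coding genes whose symbol starts with Ndufa, Ndufb, Ndufc, Ndufs, Ndufv, Uqcr, Cox4 to Cox8 or Atp5, the genes Sdha to Sdhd, and the protein-coding genes of the mitochondrial genome. The name rule also takes in the Ndufaf genes, which encode assembly factors of complex I and no subunits. It leaves out Cyc1, the gene of cytochrome c1 in complex III. Of 107 annotated genes that match, 90 were listed in at least 1 organ table, 81 nuclear-encoded and 9 mitochondrially encoded, among 10055 genes listed in all.

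Polyadenylated RNA was sequenced in bulk from liver, duodenum, jejunum and ileum of male mice, with 4 libraries per genotype and organ and 32 in total. Both genotypes are named by Khk status alone; strain, age, diet and the kind of Khk deletion were not given in the sources used here. Whether 1 mouse gave several organs is not stated, nor that the replicates were separate animals, so the p-values measure the spread between these libraries, which may be technical. The duodenum libraries carry library names of another series than those of the other organs. The authors deposited 1 table per organ, and every gene in it had an unadjusted p below 0.05 in their test of Khk KO against WT. Being listed was therefore itself decided by that contrast, and the number of members listed, or the direction they share, is a description and not a test. The other 17 members, among them mt-Co1, mt-Co3, Sdha, Ndufs1 and a further annotated entry under the name of the listed Atp5o, are named only. The liver table held 82 members (77 nuclear-encoded and 5 mitochondrial), the duodenum 17 (16 and 1), the jejunum 31 (30 and 1) and the ileum 74 (67 and 7).

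Complexes I and II pass electrons from NADH and succinate to ubiquinone, complex III passes them on to cytochrome c, and complex IV reduces oxygen; ATP synthase, or complex V, uses the resulting proton gradient. Complex II is wholly nuclear-encoded, while the other complexes combine many small nuclear-encoded subunits with a few large hydrophobic ones made inside the mitochondrion. Iron-sulfur clusters and haem sit in complexes I to IV. The nuclear genes are classic targets of the transcription factors NRF1 and GABP, which PGC-1 coactivators assist.

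Promoter letters are shown for members whose values are given below, since the nuclear-encoded members had the same direction in these tables and NRF1 is a textbook regulator of the family. RefSeq (build GRCm38.p6) gave a window of 250 bases before to 50 bases after the start for 68 of the 81 nuclear-encoded members. The word CGCATGCG, which reads the same on both strands, was present in 10 of these 68 windows (14.7%) and in 559 of 27025 windows of all genes (2.07%). The YY1 word AAGATGGCG was found on either strand in 8 windows (11.8%, against 1.64% of all genes), and the GABP word CCGGAAGTG in 2 (2.94%, against 2.25%). A match says only that the letters are there. Stretches of 5 members follow, 5′ to 3′ on the gene's strand, with the NRF1 word in capitals.
Atp5g2, chr15:102671048-102671128, minus strand: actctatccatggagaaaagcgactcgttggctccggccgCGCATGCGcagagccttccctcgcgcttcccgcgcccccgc
Atp5l, chr9:44920936-44920992, minus strand: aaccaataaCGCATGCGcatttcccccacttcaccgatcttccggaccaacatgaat
Cox6a1, chr5:115349072-115349159, minus strand: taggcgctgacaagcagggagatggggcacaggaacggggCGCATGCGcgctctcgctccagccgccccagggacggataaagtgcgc
Ndufa11, chr17:56717663-56717750, plus strand: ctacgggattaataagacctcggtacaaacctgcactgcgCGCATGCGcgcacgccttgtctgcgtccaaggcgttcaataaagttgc
Atp5k, chr5:108434401-108434488, minus strand: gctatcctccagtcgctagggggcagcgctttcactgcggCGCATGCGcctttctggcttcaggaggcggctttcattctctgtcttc
The word ends 34 bases before the annotated start in Atp5g2, 234 in Atp5l, 154 in Cox6a1, 52 in Ndufa11 and 42 in Atp5k. Atp5g2 and Atp5l, which encode a c-ring subunit and subunit g of ATP synthase, were listed in all 4 organs.

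Some facts of the whole series bear on these values. The libraries held 7505439 to 14331517 reads of listed genes in liver; the ranges were 1722220 to 3549978 (duodenum), 3053896 to 4325568 (jejunum) and 6531593 to 9149003 (ileum). Khk stood at 4.59% to 11.1% of its WT mean in the Khk KO libraries of the 4 organs and the genotypes did not overlap. Listed fold changes followed gene length: among protein-coding genes of up to 2000 bases, the share lower in Khk KO was 93.4% (liver), 91.2% (duodenum), 90.7% (jejunum) and 95.1% (ileum), against 49.6%, 60.5%, 50.7% and 51.1% of all listed protein-coding genes. The median log2 fold change of those up to 2000 bases was -0.72, -0.56, -0.58 and -0.61 in the same order. WT library 1 stood apart in the 3 intestinal segments. Of the tissue markers, 7 of 10 hepatocyte markers were listed in liver, summing to 471783 to 645494 normalised counts in WT and, without overlap, to 417855 to 465062 in Khk KO. Of these 7, 5 were lower and 2 higher in Khk KO. In duodenum, jejunum and ileum 1, 3 and 4 of 10 enterocyte markers were listed, and the duodenal one, Sis, stood at 28685 to 44671. The 3 jejunal ones, 1 lower and 2 higher, summed to 155320 to 249884 in WT and 170505 to 207149 in Khk KO. Markers that the tables do not list were not analysed here. The 4 ileal enterocyte markers summed to 164589 to 234164 in WT and 122322 to 160882 in Khk KO. Erythroid markers (5 of 8 listed) summed to 4584 to 10959 in WT liver and 2967 to 3515 in Khk KO liver, adipocyte markers (4 of 8) to 292 to 1303 and 148 to 299, and leukocyte markers (3 of 8) to 2017 to 4141 and 1600 to 2036. Smooth muscle markers in liver (3 of 8, 1 lower and 2 higher in Khk KO) summed to 500 to 1371 and 1657 to 2556. In ileum, erythroid markers (3 of 8 listed) summed to 376 to 737 in WT and 177 to 363 in Khk KO, adipocyte markers (4) to 776 to 3231 and 619 to 1393, and leukocyte markers (3) to 49345 to 61625 and 22206 to 47045. Striated muscle markers were listed only in jejunum (Acta1 and Ckm, 2 of 8), where they summed to 261 to 468 in WT and, without overlap, to 103 to 156 in Khk KO, and no pancreas acinar marker was listed in any organ. The part of these cells in the members' values was not tested; in bulk tissue, fewer cells of a type and less RNA per cell cannot be told apart.

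In liver, most listed nuclear-encoded subunits of all 5 complexes were lower in Khk KO, with medians between -0.59 and -0.73 per complex, while 4 of the 5 listed mitochondrially encoded subunits had higher means. The median over all listed protein-coding genes of up to 2000 bases was -0.72 in liver. All 77 listed nuclear-encoded members had negative fold changes. By the authors' deposited adjusted p, 71 fell at a threshold of 0.05, which is 75.5% of the 94 annotated nuclear members. Of the 18225 genes that the authors tested, 11.4% fell and 12.5% rose by this rule. In a refit of the deposited counts with edgeR's quasi-likelihood test, 66 of the 77 fell and none rose. Over the 94 annotated nuclear members this was 70.2%, against 8.09% lower and 7.31% higher among all genes tested. The median refitted log2 fold change was -0.70 for the 31 listed genes of complex I, -0.59 for the 3 of complex II, -0.64 for the 8 of complex III, -0.73 for the 13 of complex IV that could be fitted, -0.64 for the 16 of ATP synthase and -0.94 for the 5 Ndufaf genes. Normalised counts of WT and Khk KO libraries did not overlap for 72 of the 77; genotypes did not overlap for 65.8% of all listed protein-coding genes, and the list was picked on this contrast.

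**Figure D1:**
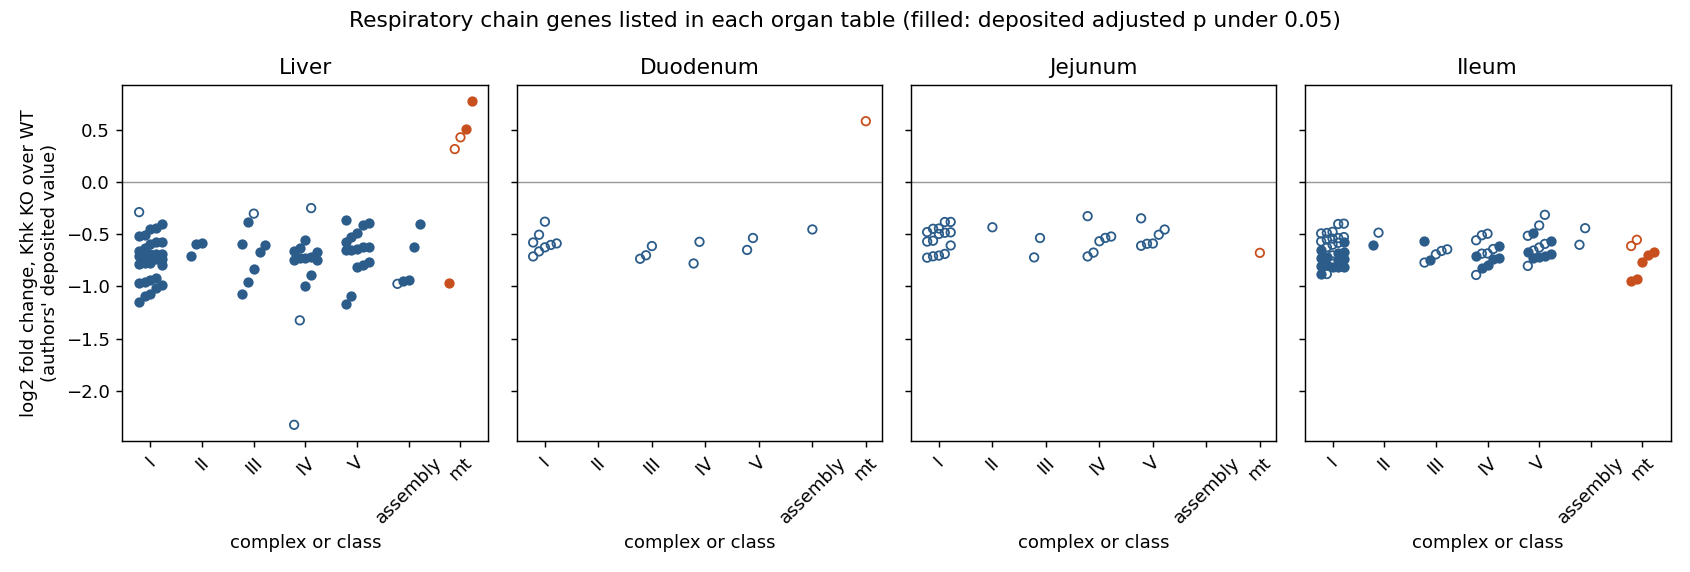
The authors' deposited log2 fold change (Khk KO over WT, vertical axis) of each listed member (points), by complex and organ; mt marks mitochondrially encoded members, and filled points have a deposited adjusted p under 0.05. Nuclear-encoded members lie below 0 in all 4 organs, and mitochondrially encoded ones lie on both sides in liver and below 0 in ileum.

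Complex I has 36 annotated nuclear members here, assembly factors aside, of which 31 were listed in liver and 29 fell in the refit. Positions are those of the deposited tables, in build GRCm38. Ndufb8 (chromosome 19, 44548572 to 44555440, minus strand), an accessory subunit of the membrane arm, had the largest change. Its normalised counts (reads over the library's size factor, not per length) were 964, 1406, 2417 and 1309 in WT libraries 1 to 4 and 703, 613, 773 and 659 in Khk KO. WT library 3 was far above the other WT libraries, and the genotypes did not overlap. The log2 fold change was -1.15 ± 0.24 (SE), with an adjusted p of 0.019 by edgeR's quasi-likelihood test with Benjamini-Hochberg adjustment. Ndufa13, an accessory subunit also known as GRIM-19, read 1483, 1955, 2651 and 1837 in WT and 887, 1026, 1084 and 1074 in Khk KO; 28.5% of its 50-base words are shared with other annotated genes, mainly the antisense Tssk6, so its reads are uncertain. The core iron-sulfur subunits Ndufs7 and Ndufs8 fell from 1925 ± 509 to 1109 ± 83 and from 1406 ± 183 to 906 ± 105 normalised counts (SD, n = 4). Ndufs1, the largest core subunit, and Ndufb2 were not listed in any organ.

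Complex II, the succinate dehydrogenase of the citric acid cycle, had 3 of its 4 genes listed in liver, and all 3 fell. Sdhb, the iron-sulfur subunit (chromosome 4, 140961203 to 140979193, plus strand), read 3008, 3875, 5541 and 3757 in WT and 2526, 2369, 2637 and 2359 in Khk KO. Every WT library lay above every Khk KO library, and the log2 fold change was -0.71 ± 0.17 (edgeR adjusted p = 0.0244). The membrane anchors Sdhc and Sdhd fell by 0.59 each on the log2 scale. Sdha, the flavoprotein subunit, was not listed in any organ.

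Complex III had all 8 nuclear members that match the name rule listed in liver, and 7 fell. Cyc1, outside the rule, is given with the mobile carriers below. Uqcr11, a small accessory subunit (chromosome 10, 80402997 to 80406830, minus strand), had the largest change, from 1504, 1768, 2755 and 1955 in WT to 950, 795, 1103 and 941 in Khk KO, a log2 fold change of -1.08 ± 0.19 (edgeR adjusted p = 0.016). Uqcrq, which binds next to cytochrome b (chromosome 11, 53427922 to 53430831, minus strand), read 4658, 5956, 8300 and 5975 in WT and 3285, 2935, 3465 and 3111 in Khk KO. For Uqcrh, the hinge protein that contacts cytochrome c1, the counts were 1909, 2211, 2508 and 2511 in WT and 1348, 1260, 1498 and 1627 in Khk KO. In all 3 genes the lowest WT library was above the highest Khk KO library.

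Complex IV had 14 of 20 annotated members listed in liver, and 11 fell. Cox6a1, the liver isoform of subunit VIa (chromosome 5, 115345642 to 115348981, minus strand), stood at 842 ± 87.3 FPKM (fragments scaled to gene length and library size) in WT and 499 ± 32.9 in Khk KO liver (SD, n = 4), the highest level per length of the nuclear-encoded members. Its normalised counts were 6049, 7110, 7511 and 6798 in WT and 4062, 3813, 4420 and 4257 in Khk KO, a tight separation with a log2 fold change of -0.73 ± 0.12 (edgeR adjusted p = 0.0148). Cox4i1, the common isoform of subunit IV (chromosome 8, 120668222 to 120674207, plus strand), read 7223, 9662, 13357 and 8925 in WT and 4800, 4708, 5166 and 5030 in Khk KO (log2 fold change -0.99 ± 0.17, edgeR adjusted p = 0.0159). Some tissue isoforms were low: Cox7a1, the muscle isoform of subunit VIIa, stood at 3.28 ± 1.18 FPKM in WT liver, where its partner Cox7a2 stood at 221 ± 35 FPKM, and Cox6b2, the testis isoform, at 0.61 ± 0.37 FPKM beside 379 ± 61 for Cox6b1 (SD, n = 4). Cox7a2 and Cox6b1 fell, by 0.75 and 0.72 on the log2 scale; the difference of Cox7a1 did not pass (-1.32 ± 0.51, edgeR adjusted p = 0.104; it passed without WT library 1, at -1.54 and 0.0421) and Cox6b2 was too low to be tested. Cox6c had the smallest fold change of the nuclear-encoded members, -0.25 ± 0.12 (edgeR adjusted p = 0.18). Cox4i2, Cox6a2, Cox7b2, Cox8b and Cox8c, all tissue-restricted isoforms, were not listed in any organ.

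ATP synthase had 16 of 17 annotated members listed in liver, of which 14 fell in the refit and all 16 by the deposited adjusted p. The unlisted member is a further annotated entry named Atp5o, while another entry of that name was listed. Atp5e, subunit epsilon of the central stalk (chromosome 2, 174461072 to 174464105, minus strand), had the lowest edgeR adjusted p of the members in liver, 0.0145, with 1994, 2644, 3247 and 2842 normalised counts in WT and 1127, 1086, 1467 and 1366 in Khk KO (log2 fold change -1.09 ± 0.17). Atp5k, subunit e of the membrane part, read 456, 605, 920 and 720 in WT and 299, 239, 364 and 303 in Khk KO. The catalytic beta subunit Atp5b (chromosome 10, 128083273 to 128090391, plus strand) was the most counted nuclear gene, at 22119, 26200, 33953 and 25408 in WT and 17776, 17742, 18084 and 18918 in Khk KO (log2 fold change -0.57 ± 0.13, edgeR adjusted p = 0.0211). Groups did not overlap in any of the 3. The genes for the identical c-ring protein ranked Atp5g3, Atp5g2, Atp5g1 per length, at 251 ± 40.3, 80.9 ± 16.7 and 29.5 ± 2.39 FPKM in WT liver (SD, n = 4), and in ileum at 152 ± 57.3, 67.2 ± 21.7 and 27.2 ± 9.45 FPKM. The order of Atp5g2 and Atp5g1 rests on their table lengths, 1675 and 4912 bases. By mean normalised counts Atp5g1 stood above Atp5g2 in WT ileum. In liver Atp5g3 and Atp5g2 fell by 0.82 and 0.64 on the log2 scale, and Atp5g1 gave -0.39 ± 0.13 (edgeR adjusted p = 0.0597).

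Mitochondrially encoded subunits were far more abundant per length, with a median of 3610 FPKM in WT liver over the 5 listed members against 115 FPKM over the 77 nuclear-encoded ones. The 5 listed were all complex I subunits. mt-Nd5 (mitochondrial genome, 11742 to 13565, plus strand), the distal proton-pumping subunit, read 73276, 62718, 47245 and 53452 normalised counts in WT and 106155, 108351, 103618 and 86777 in Khk KO, and rose by 0.77 ± 0.14 on the log2 scale (edgeR adjusted p = 0.016). mt-Nd6 (13552 to 14070, minus strand), the 1 protein of the light strand, read 26383, 23557, 17559 and 19784 in WT and 32728, 33664, 30114 and 27610 in Khk KO, and rose by 0.51 ± 0.14 (edgeR adjusted p = 0.0324). In both the genotypes did not overlap, and WT library 3, which held the most nuclear-encoded RNA, held the least of these. For mt-Nd2 and mt-Nd4 the means were higher in Khk KO but WT library 1 reached the Khk KO values: mt-Nd2 read 111458, 98801, 73383 and 80928 in WT and 112219, 111393, 117488 and 112547 in Khk KO (0.32 ± 0.13, edgeR adjusted p = 0.12), and mt-Nd4 read 85353, 65808, 41539 and 51362 in WT and 80833, 84414, 85764 and 77328 in Khk KO (0.43 ± 0.18, adjusted p = 0.142). The counts of mt-Nd4 are uncertain, since 62.2% of its 50-base words also occur in the nuclear pseudogene Gm28439, which had higher means in Khk KO liver too (285 ± 72 to 440 ± 49 normalised counts; SD, n = 4). The ends of mt-Nd5 and mt-Nd6 overlap on opposite strands, and mt-Nd6 lies opposite the transcripts of the other strand; whether counting used strand is unknown, so reads from either strand cannot be told apart. mt-Nd3 fell, from 566, 1112, 1099 and 939 to 287, 573, 524 and 521 (-0.97 ± 0.26, edgeR adjusted p = 0.0309). In WT its counts were 566 to 1112 against at least 17559 for the other 4, and 98% of its 50-base words also occur in the annotated nuclear pseudogene Gm28438, so its counts are uncertain. Without WT library 1, which was the highest WT library for mt-Nd2 and mt-Nd4, all 4 others passed by edgeR as higher (mt-Nd2 0.43, adjusted p = 0.0105).

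**Figure D2:**
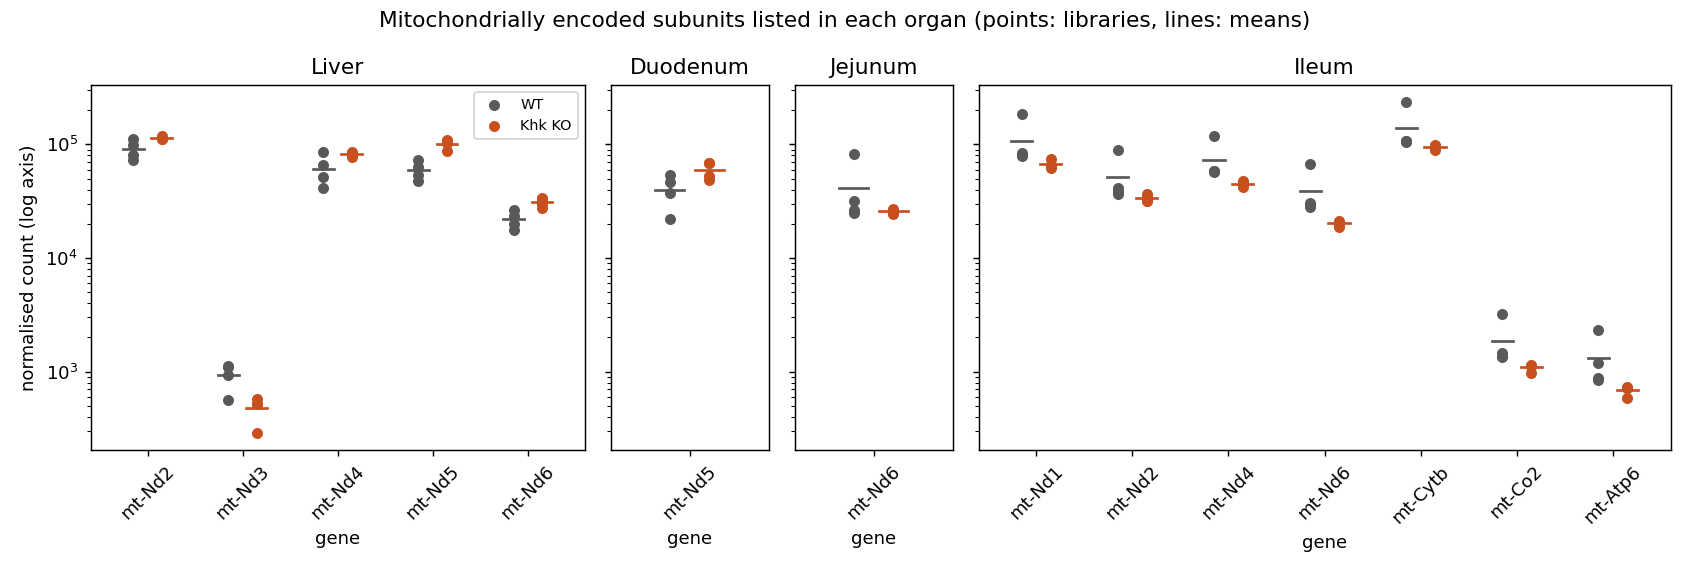
Normalised counts (log axis) of each mitochondrially encoded member listed in an organ, for WT and Khk KO libraries (points, 4 per group) with the group mean as a line. In liver mt-Nd5 and mt-Nd6 separate upward in Khk KO, and in ileum WT library 1 lies far above the other 7 libraries for the genes shown.

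The sum of the listed mitochondrial members over that of the listed nuclear members, in FPKM, was 2.27, 1.65, 0.98 and 1.37 in WT liver libraries 1 to 4 and 3.46, 3.69, 3.30 and 3.01 in Khk KO. All 4 Khk KO ratios lay above all WT ratios, a description only, since the summed members were picked on this same contrast. The nuclear sum ran from 9703 to 14529 FPKM in WT and from 6771 to 7575 in Khk KO, and the mitochondrial sum from 14270 to 22068 and from 22423 to 25000.

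Within liver, the nuclear-encoded members moved with the length trend of each library. That trend was estimated as a smooth curve of a library's log2 deviation from the organ mean on gene length, over all listed genes. At 1500 bases, close to the members' median length of 1587 bases, it was 0.019, 0.36, 0.62 and 0.31 in WT libraries 1 to 4 and between -0.38 and -0.27 in Khk KO, and the median deviation of the nuclear-encoded members differed from it by at most 0.0596 in any liver library. With the trend taken out as an offset, the median log2 fold change of the nuclear-encoded members was -0.088 in place of -0.69, and 9 passed the edgeR threshold, all lower (2.13% of all genes passed lower and 2.17% higher in that fit). Such a curve takes out any genotype effect that runs with length as well, and both cannot be told apart. It was also drawn through genes picked on this same contrast, so the trend of unlisted genes is not known. The 9 were Ndufab1, Ndufb5, Ndufb7, Ndufb8, Atp5b, Atp5e, Atp5g1, Atp5j2 and Atp5l, from -0.42 for Atp5j2 to -1.13 for Atp5l. All but Atp5e (1756 bases) have table lengths of 3146 bases or more, up to 6883 for Ndufab1. The mitochondrial members went the other way: their median moved from 0.43 to 1.02, and mt-Nd2, mt-Nd5 and mt-Nd6 all rose in that fit (0.97, 1.34 and 1.24). With a GC content trend taken out in its place, the mitochondrial median was -0.18, mt-Nd6 gave -0.15 and mt-Nd5 gave 0.19 (edgeR adjusted p = 0.619); no mitochondrial member rose in that fit and 1, mt-Nd3, fell. The direction of the mitochondrial members in liver depends on which trend is removed. The size of the nuclear median does too, at -0.088 with the length trend out and -0.70 with the GC trend out. The number of nuclear-encoded members past the edgeR threshold in liver moved with single libraries: it was 0 without Khk KO 1 or Khk KO 2, 3 without Khk KO 4, 14 without WT 4, 19 without WT 2, 22 without Khk KO 3, 64 without WT 3 and 73 without WT 1. The share of all genes lower in these fits moved as well, from 0.011% without Khk KO 2 to 13.3% without WT 1. The members' median stayed between -0.77 and -0.58.

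**Figure D3:**
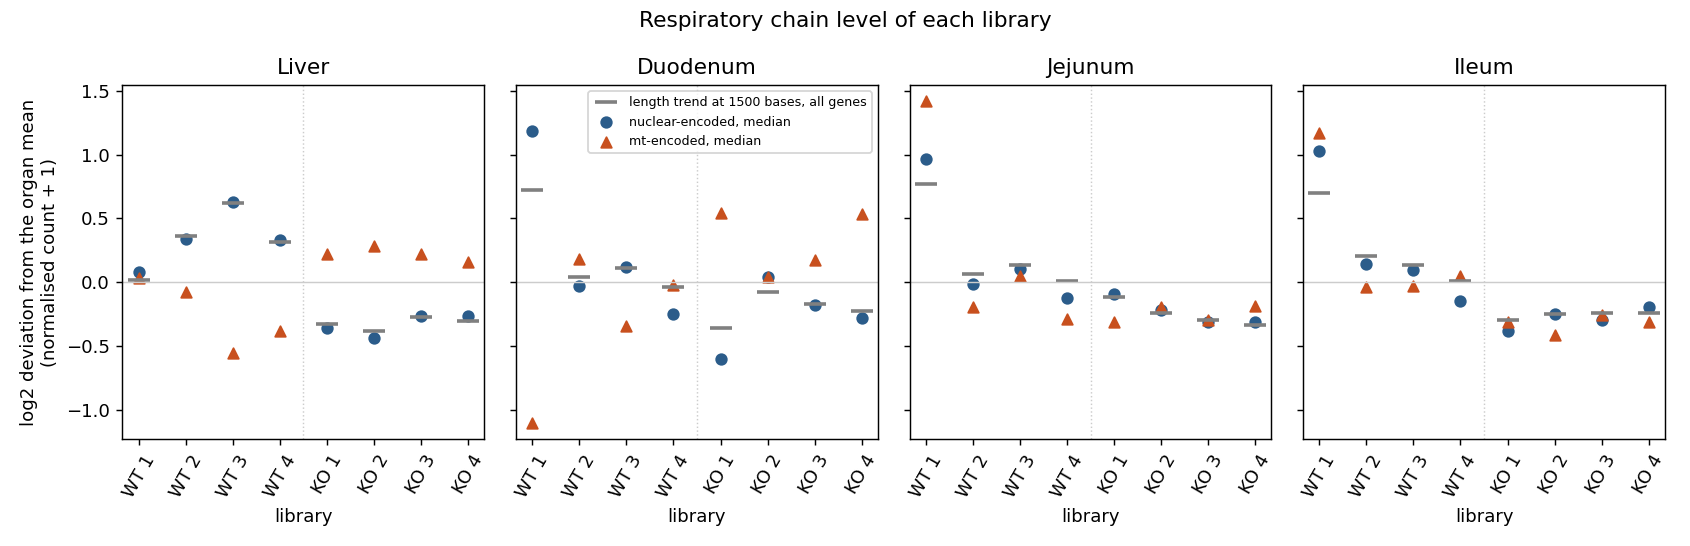
Median log2 deviation from the organ mean of the nuclear-encoded (circles) and mitochondrially encoded (triangles) members in each library. Bars give the length trend of all listed genes at 1500 bases. Circles lie close to the bars in liver, and WT library 1 is the highest circle in the 3 gut segments; its triangle is the lowest in duodenum (-1.10) and the highest in jejunum (1.42) and ileum (1.17).

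**Figure D4:**
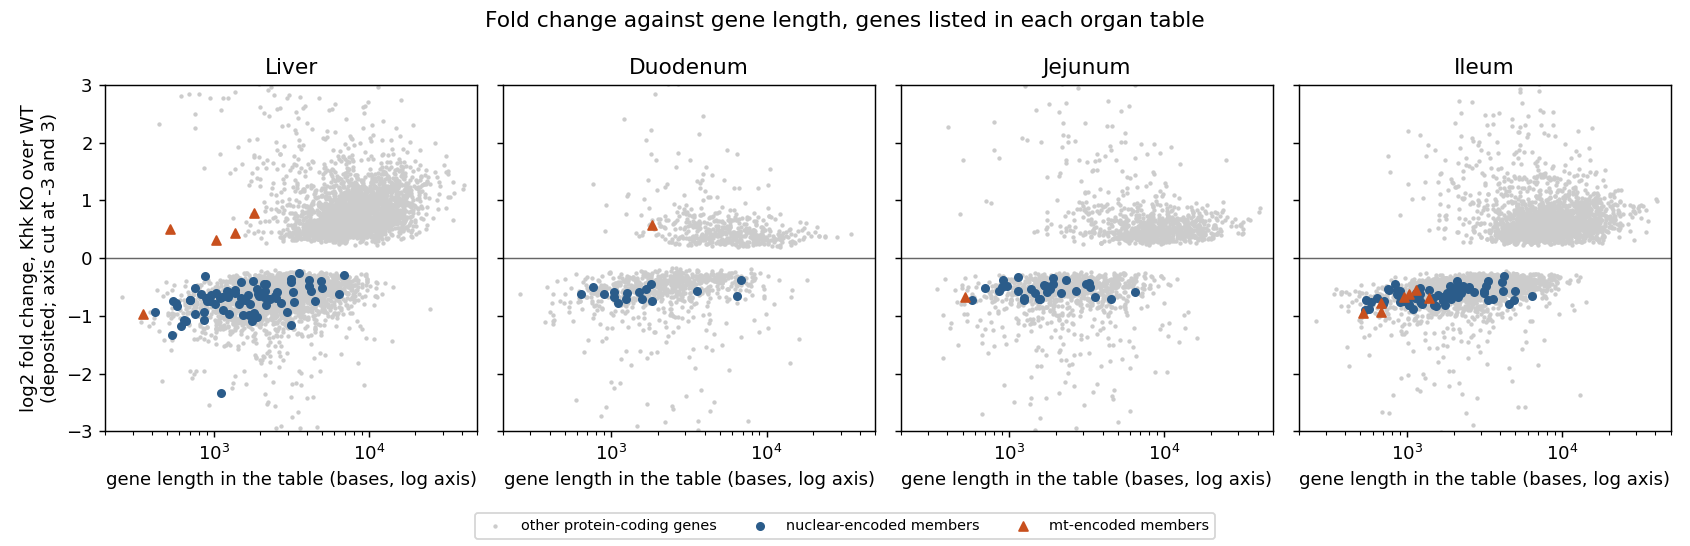
Deposited log2 fold change against the gene length given in the table (log axis) for protein-coding genes of each organ (grey), nuclear-encoded members (circles) and mitochondrially encoded members (triangles). Genes near 0 are missing because the tables list only genes past the authors' p; in liver 4 mitochondrial members lie above 0 at lengths where 93.4% of listed genes are below it.

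In ileum all 67 listed nuclear-encoded and all 7 listed mitochondrial members had lower means in Khk KO, and few passed in the refit. By the deposited adjusted p 30 nuclear-encoded and 5 mitochondrial members fell, 31.9% and 38.5% of the annotated ones. Of the 16034 genes tested, 6.86% were lower and 8.76% higher by this rule. By edgeR 5 nuclear-encoded members fell (5.32% of the annotated ones) and no mitochondrial one, with 3.37% of all genes lower and 6.52% higher. Medians were -0.66 over nuclear-encoded and -0.70 over mitochondrial members, and by complex they ran from -0.55 in complex II to -0.69 in complex IV, with -0.52 for the 2 Ndufaf genes. Over all listed protein-coding genes of up to 2000 bases the ileal median was -0.61. Of the 67, 65 were also listed in liver, which is 97% of the ileum list and 84.4% of the liver list.

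The 5 that fell in ileum were Ndufa7, Ndufa11, Ndufs7 and Ndufs8 of complex I and Cox7a2l, which joins complex III and complex IV into supercomplexes. Ndufa11, a membrane-arm subunit (chromosome 17, 56717767 to 56722141, plus strand), read 2746, 1300, 1333 and 1149 in WT and 892, 888, 917 and 844 in Khk KO (-0.88 ± 0.24, edgeR adjusted p = 0.0469). Ndufa7 read 1716, 1014, 1095 and 976 in WT and 652, 807, 610 and 825 in Khk KO (-0.73 ± 0.19, edgeR adjusted p = 0.0397). In both, WT library 1 was the highest by far, and the remaining WT libraries still lay above all Khk KO libraries. Ndufs7 and Ndufs8 behaved alike: Ndufs7 read 3243, 2033, 1736 and 1672 against 1202, 1337, 1495 and 1256, and Ndufs8 read 2910, 1707, 1721 and 1416 against 1060, 1115, 1164 and 1281. Both are core subunits that carry iron-sulfur clusters, and neither overlapped between genotypes (edgeR adjusted p = 0.0478 and 0.0426). In ileum genotypes did not overlap for 36 of the 67 nuclear-encoded and 6 of the 7 mitochondrial members. The share was 68.7% over all listed protein-coding genes there, and the list was picked on this contrast. Cox7a2l (chromosome 17, 83501919 to 83514333, minus strand) read 3855, 2519, 2340 and 2290 in WT and 1661, 1781, 1842 and 1925 in Khk KO, a log2 fold change of -0.61 ± 0.17 (edgeR adjusted p = 0.0462).

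The ileal mitochondrial subunits came from complexes I, III, IV and V. mt-Cytb (14145 to 15288, plus strand), the catalytic core of complex III, had the highest FPKM of the ileal members, 5790 ± 2588 in WT and 3984 ± 177 in Khk KO (SD, n = 4), from normalised counts of 237956, 105757, 106504 and 106832 in WT and 97086, 89340, 98013 and 95117 in Khk KO. mt-Nd1 read 183137, 79300, 80558 and 84286 in WT and 65899, 62280, 74704 and 64945 in Khk KO, and mt-Nd4, uncertain here too for its copy, read 117991, 58826, 57594 and 57801 against 47242, 41872, 46810 and 44426. WT library 1 was the highest in each (over the 7 genes its median ratio to the mean of the other WT libraries was 2.28), and without it the groups of these 3 genes still did not overlap. mt-Nd6 had the largest difference, with 67238, 30245, 28215 and 29951 in WT and 20995, 18838, 20862 and 20058 in Khk KO (-0.95 ± 0.27, edgeR adjusted p = 0.0514). mt-Nd2 read 89913, 36301, 38759 and 40920 in WT and 31994, 31869, 36410 and 34352 in Khk KO, where 1 Khk KO library exceeded the lowest WT library. mt-Co2 read 3243, 1405, 1342 and 1450 against 1151, 974, 1124 and 1112, and mt-Atp6 2315, 876, 840 and 1194 against 714, 590, 714 and 728. These last 2 share 100% and 99.5% of their 50-base words with annotated nuclear pseudogenes, mainly Gm28661 and Gm10925, and their counts are uncertain; Gm28661 and Gm10925 were themselves listed with lower means in Khk KO ileum, 1274 ± 693 to 681 ± 69 and 1282 ± 623 to 842 ± 64 normalised counts (SD, n = 4).

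All Khk KO libraries thus lay above WT for mt-Nd6 in liver and below WT in ileum. The difference between the organs was not tested, because the tables were normalised separately and it is not known whether the same mice gave both. With the GC trend taken out, the log2 fold change of mt-Nd6 in liver was negative.

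Leaving out WT library 1 changed the ileum more in size than in direction. The nuclear median became -0.30 and the mitochondrial -0.36, and 29 nuclear-encoded and 4 mitochondrial members passed by edgeR without that library. The number of nuclear-encoded members past the threshold was 39 without WT 4 and 0 without any of the other 6 libraries; TMM scaling gave 24 and DESeq2 35. The share of all genes lower was 6.44% without WT 1, 6.55% without WT 4, 6.05% with TMM scaling and 9.52% with DESeq2, against 3.37% in the edgeR fit of all 8 libraries. With the length trend taken out of all 8 libraries, the medians were -0.11 and -0.070, and 1 member passed, Atp5g1 (1.52% of all genes passed lower and 1.45% higher in that fit). Its counts were 4331, 2414, 2451 and 2016 in WT and 1618, 1753, 1716 and 1665 in Khk KO, and its log2 fold change was -0.79 with an edgeR adjusted p of 0.0431. With the trend out and WT library 1 left out, the medians were 0.027 and 0.036. Cox7a1, which was low in liver, read 1095, 336, 394 and 310 in WT ileum and 277, 274, 276 and 324 in Khk KO. WT library 1 was far above the rest and the genotypes overlapped; the difference did not pass (-0.89 ± 0.36, edgeR adjusted p = 0.127; -0.27 without WT library 1).

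**Figure D5:**
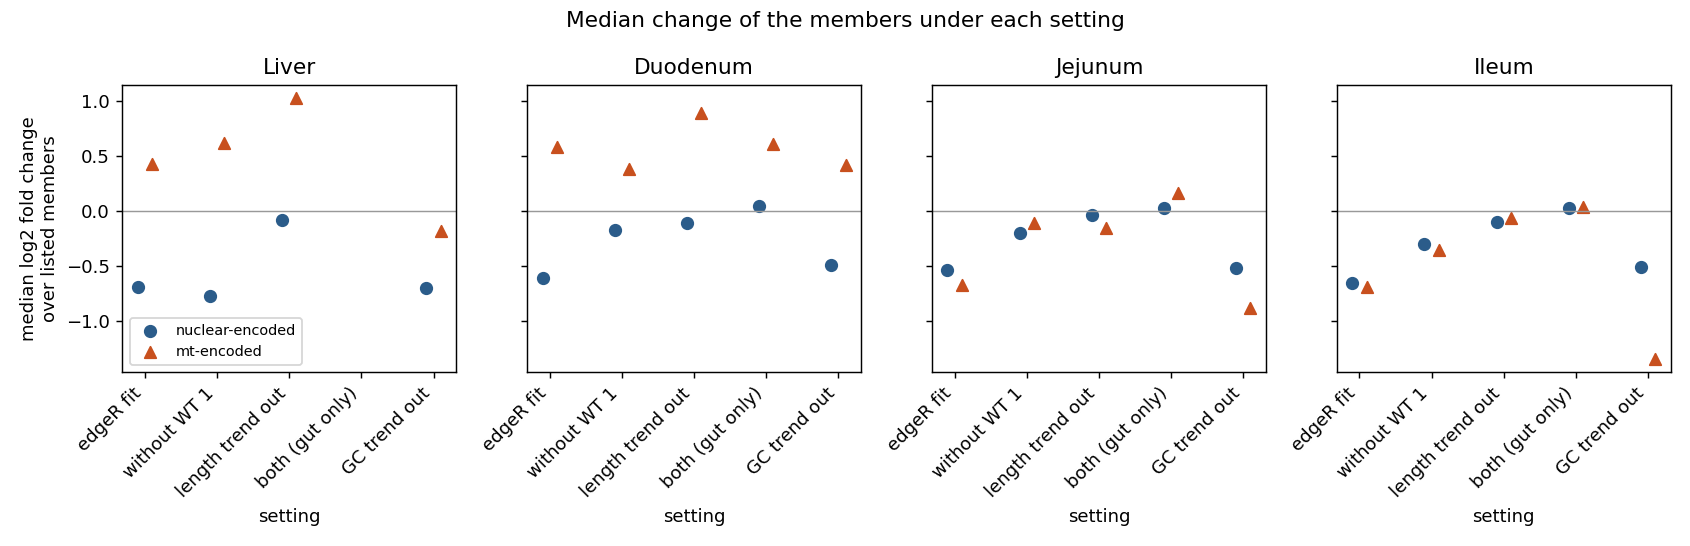
Median log2 fold change over the listed nuclear-encoded (circles) and mitochondrially encoded (triangles) members in each organ, in the edgeR fit, without WT library 1, with the length trend taken out, with both (gut only), and with the GC content trend taken out. Nuclear medians move to between -0.11 and -0.035 with the length trend out, the liver mitochondrial median moves up to 1.02, and the ileal mitochondrial median moves down to -1.34 with the GC trend out.

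In duodenum and jejunum no member passed either rule. In duodenum 0.224% of 15615 genes passed by the deposited adjusted p and 0.0064% by edgeR, and in jejunum 0.759% and 0.0101% of 9881. The 16 nuclear-encoded members listed in duodenum and the 30 in jejunum had lower means in Khk KO, with medians of -0.61 and -0.54 (-0.56 and -0.58 over all listed protein-coding genes of up to 2000 bases). WT library 1 was the highest of the 8 libraries for all 16 in duodenum and for 29 of 30 in jejunum, as it was for all 67 in ileum, and without it the medians were -0.17 and -0.20. With the length trend taken out they were -0.11 and -0.035. Of the markers of other cells, erythroid ones (4 of 8 listed in each) summed to 821 to 1780 in WT and 315 to 985 in Khk KO duodenum. In jejunum they summed to 532 to 1543 and 389 to 719. Jejunal adipocyte markers (5 of 8) summed to 313 to 3007 and 292 to 577, and smooth muscle markers (4 of 8) to 9428 to 22433 and 7709 to 11341. The genotypes overlapped in each of these sums. Duodenal leukocyte markers (1 of 8 listed, Adgre1) were higher in Khk KO, at 69 to 196 in WT and 210 to 218 in Khk KO. Uqcrq shows the pattern: it read 20889, 7403, 8700 and 6206 in WT and 4851, 7846, 6919 and 6333 in Khk KO duodenum, 8585, 3744, 4805 and 3801 against 4096, 3640, 3381 and 3321 in jejunum, and 7864, 3313, 3163 and 2672 against 2600, 2877, 2448 and 2839 in ileum. Uqcrh read 15917, 5511, 6199 and 4697 in WT and 3953, 6047, 5086 and 4788 in Khk KO duodenum, 12553, 3712, 4368 and 3497 against 3946, 3714, 3294 and 3675 in jejunum, and 8625, 3192, 3118 and 2659 against 2404, 2614, 2363 and 2924 in ileum. Outside WT library 1 the groups of both genes overlapped in all 3 segments. The same library was highest for Ndufa13 (6241, 2679, 2836 and 2113 in WT duodenum, 3529, 1679, 1636 and 1532 in jejunum and 3042, 1390, 1402 and 1179 in ileum) and for Cox4i1 in jejunum (30873, 13046, 13555 and 11274) and ileum (22781, 10556, 9224 and 8252). Their Khk KO libraries stood at 1762, 2817, 2398 and 2154, at 1479, 1239, 1206 and 1274, and at 892, 1039, 1070 and 1047 for Ndufa13, and at 12044, 10216, 9589 and 10100 and at 6469, 7385, 7417 and 7406 for Cox4i1.

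In a few gut members WT library 1 was the highest by less. Cox7a2l in jejunum read 3185, 2909, 3020 and 2651 in WT and 2595, 2198, 2273 and 2313 in Khk KO, without overlap and with WT library 1 near its group. The difference did not pass (-0.33 ± 0.11, edgeR adjusted p = 0.252). Genotypes did not overlap for 10 of the 30 nuclear-encoded members listed in jejunum, against 58.1% of all listed protein-coding genes there. Ndufa12, an accessory subunit of complex I, read 2575, 1610, 1527 and 1183 in WT duodenum and 1242, 1403, 723 and 835 in Khk KO; WT library 1 was the highest, and the remaining WT libraries overlapped with Khk KO. Ndufa4l2, the hypoxia-linked relative of the complex IV subunit Ndufa4, was listed only in duodenum, where it stood at 2.13 ± 0.58 FPKM in WT and 1.24 ± 0.25 in Khk KO (SD, n = 4).

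The single mitochondrial member listed in duodenum, mt-Nd5, and the single one in jejunum, mt-Nd6, lay on opposite sides. mt-Nd5 read 21892, 53506, 37164 and 46255 in WT and 68520, 48274, 53028 and 67991 in Khk KO duodenum (0.58 ± 0.27, edgeR adjusted p = 0.85; 0.38 without WT library 1), and here WT library 1 was the lowest of the 8. mt-Nd6 read 81376, 26615, 31424 and 24958 in WT and 24578, 26558, 24785 and 26785 in Khk KO jejunum (-0.68 ± 0.35, edgeR adjusted p = 0.415), with WT library 1 far above the other 7; without it the log2 fold change was -0.11. WT library 1 was thus high in the nuclear-encoded members of all 3 segments, low in mt-Nd5 in duodenum and high in mt-Nd6 in jejunum and ileum; mt-Nd5 was not listed in jejunum or ileum.

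The 7 members listed in all 4 organs were Ndufa13, Ndufs6, Uqcrh, Uqcrq, Cox6c, Atp5g2 and Atp5l. Their deposited log2 fold changes were between -0.96 and -0.25 in liver; the gut ranges were -0.74 to -0.54 (duodenum), -0.72 to -0.46 (jejunum) and -0.79 to -0.66 (ileum). Without WT library 1 they became -1.08 to -0.23, -0.20 to -0.14, -0.31 to -0.042 and -0.40 to -0.18 in the same order.

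Genes that act around the chain were read from lists that partly overlap the members. By edgeR 8.09% of all genes fell and 7.31% rose in liver, and 3.37% and 6.52% in ileum, and the counts of each list stand beside those shares. Of 55 assembly factors, among them the Ndufaf genes, 30 were listed in liver, 29 lower and 1 higher in Khk KO, and 18 fell by edgeR and none rose; in ileum all 17 listed were lower and 3 fell. The cytochrome oxidase assembly factor Surf1 fell in ileum from 655 ± 66 to 482 ± 45 normalised counts (SD, n = 4; -0.44 ± 0.12, edgeR adjusted p = 0.0439). A list of 20 mobile carriers and ubiquinone synthesis genes also held Cyc1 of complex III and Etfa, Etfb, Dhodh and Gpd2. Of the 20, 12 were listed in liver and 8 fell by edgeR. Among these were Cycs, cytochrome c (-0.45 ± 0.14, edgeR adjusted p = 0.0462), Coq9 (-0.76 ± 0.20, adjusted p = 0.03) and Cyc1 (-0.85 ± 0.18, adjusted p = 0.0183). None of the 5 listed in ileum passed. Of 24 citric acid cycle genes, Sdhb, Sdhc and Sdhd included, 9 were listed lower in liver and 5 fell, and 9 were listed lower in ileum and 3 fell. All listed mitochondrial ribosomal protein genes, which make the translation machinery for the mitochondrial subunits, were lower too, 65 in liver with 46 falling by edgeR and 52 in ileum with 8. The full size of the ribosomal list was not set, so its counts are over listed genes alone. With the length trend taken out, 1, 3, 1 and 16 genes of these lists fell in liver in the order given, and 0, 0, 2 and 7 in ileum. In that fit 2.13% of all genes fell in liver and 1.52% in ileum.

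Regulators of mitochondrial biogenesis, a list that holds activators and corepressors alike, were mostly higher. Of 24 biogenesis regulators 17 were listed in liver, 15 higher and 2 lower in Khk KO, and 7 rose and 1 fell by edgeR. Ppargc1a, which encodes PGC-1 alpha, rose from 104 ± 15.4 to 212 ± 74.3 normalised counts (SD, n = 4; 1.04 ± 0.25, edgeR adjusted p = 0.0238), and Gabpa, the DNA-binding GABP subunit, from 777 ± 144 to 1206 ± 35.7 (0.63 ± 0.15, adjusted p = 0.0238). Esrra, the nuclear receptor ERR alpha that works with PGC-1 alpha, fell by 0.78 (edgeR adjusted p = 0.019); with the length trend taken out it gave -0.26 (adjusted p = 0.27) and did not pass. In ileum 12 of the 13 listed were higher and 5 rose, Gabpa among them (0.53 ± 0.11, edgeR adjusted p = 0.0179). The corepressor genes Ncor1 (0.76 ± 0.16, edgeR adjusted p = 0.02) and Nrip1 (0.66 ± 0.13, adjusted p = 0.0145) rose there too. In liver Ncor1 rose (1.02 ± 0.29, edgeR adjusted p = 0.0386) and Nrip1 did not pass (0.97 ± 0.32, adjusted p = 0.0618). Table lengths are 5687 bases for Gabpa, 6592 for Ppargc1a and 2539 for Esrra. With the length trend taken out none of the list rose in liver or ileum, and 1 fell in liver. Of 42 genes of mitochondrial gene expression, 12 were listed in liver: 7 fell, the transcription factor Tfb1m among them (-0.68 ± 0.20, edgeR adjusted p = 0.0391; -0.43 and adjusted p = 0.3 with the length trend out), and Lrpprc, which stabilises mitochondrial messenger RNA, rose (0.65 ± 0.19, adjusted p = 0.0426) but gave 0.0082 with the length trend out. In that fit 4 of the list fell, against 2.13% of all genes. Tfam, which packages and transcribes mitochondrial DNA, did not pass in liver (-0.29 ± 0.13, edgeR adjusted p = 0.149). None of the 5 listed in ileum passed.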

How the data were processed

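Per the labels' protocols, RNA was taken with a Qiagen RNeasy kit, selected on poly-T beads and primed with random hexamers; a directional and a non-directional chemistry are both named, so strandedness is unknown. Per the submitters' processing notes, HISAT2 2.0.5 and GRCm38 (mm10) were used; the counting tool, annotation and test were not given in the sources used here. Per the file headers, the authors deposited for each organ raw read counts, normalised signal (the count divided by a size factor), FPKM, a log2 fold change, a p-value and an adjusted p-value, only for genes with p under 0.05. The adjusted values showed that 18225, 15615, 9881 and 16034 genes had been tested in liver, duodenum, jejunum and ileum. No column of another sample was present (0).

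Counts were refitted for each organ with edgeR 4.0.16 (R 4.3.3; filterByExpr, quasi-likelihood test of Khk KO against WT), with library scaling by the size factors recovered from the deposited values and Benjamini-Hochberg adjustment over the numbers above, since the tables lack unchanged genes; SE is the size of the log2 fold change over the square root of F. Called means an adjusted p under 0.05. The length and GC trends were lowess curves (span 0.5) of log2 (normalised count + 1) deviations, entered as offsets. They were drawn through listed genes averaging 10 or more normalised counts. Shared 50-base words and GC content came from GENCODE M21 transcripts. Other alternatives were TMM, DESeq2 1.42.0, no filter, a replicate block and leaving out each library. Scripts were tested on simulated counts. Python 3.11.15, pandas 2.3.3 and matplotlib 3.10.9 did the rest.

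The members, the lists and the rule for named genes were chosen with earlier results of these data known. Named were all mitochondrial members listed; per organ and complex the nuclear-encoded subunit with the largest deposited change (mean of at least 100 normalised counts) and that with the highest FPKM; members listed in 3 or 4 organs; up to 3 of opposite sign per organ; those past the threshold in duodenum or jejunum; and the isoform families Cox4i, Cox6a, Cox6b, Cox7a, Cox8, Atp5g and Ndufa4. Further genes named in the text were chosen after their values were seen. A gene withheld from this text is not reported here.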

Additional observations from a re-analysis of the deposited data

Results flagged for a closer look

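Single libraries stood apart within their group of 4, by Dixon's test at 95%, in 68 of 314 groups over the named members and the medians. These groups come from the same libraries and are not independent, so their number cannot be set against the 5% that chance gives. WT library 1 stood apart most often: in 31 gene groups in ileum, 16 in jejunum and 8 in duodenum. Among the values given above, WT library 1 stood apart in ileum for mt-Cytb (237956 normalised counts), mt-Nd1 (183137), mt-Nd4 (117991), mt-Nd2 (89913), mt-Nd6 (67238), mt-Co2 (3243), Cox4i1 (22781), Uqcrh (8625), Uqcrq (7864), Cox7a2l (3855), Ndufa13 (3042), Ndufa11 (2746), Ndufa7 (1716) and Cox7a1 (1095), and the median deviation of the mitochondrial members there was 1.17 on the log2 scale. In jejunum it stood apart for mt-Nd6 (81376), Cox4i1 (30873), Uqcrh (12553) and Ndufa13 (3529), and in duodenum for Uqcrq (20889) and Uqcrh (15917).

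Khk KO libraries stood low in ileum for 3 of the genes shown, Cox4i1 (6469, library 1), Ndufa13 (892, library 1) and mt-Atp6 (590, library 2), and 1 stood high, for Cox7a1 (324, library 4).

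mt-Nd6 had every Khk KO library above every WT library in liver (log2 fold change 0.51) and every Khk KO library below every WT library in ileum (-0.95). That difference between organs was not tested, and with the GC trend taken out the liver value was negative.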

How the results depend on the processing

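The direction of the nuclear medians held under TMM scaling, DESeq2, no filter on low counts, the GC trend and each library left out, in all 4 organs. Other settings moved them. In liver 9 nuclear-encoded members passed with the length trend taken out in place of 66, and leaving out 1 library gave 0 to 73. The liver medians with the length trend out were -0.088 (nuclear) and 1.02 (mitochondrial); the GC trend gave -0.18 for the mitochondrial median and -0.15 for mt-Nd6, and leaving out 1 library gave -0.77 to -0.58 and 0.28 to 0.61. In ileum 24 passed with TMM scaling, 35 with DESeq2, 19 with the GC trend out and 1 with the length trend out in place of 5, and 0 to 39 without 1 library (29 without WT 1, 39 without WT 4 and 0 without any other single library). The ileal medians with the length trend out were -0.11 and -0.070, the mitochondrial one with the GC trend out was -1.34, and leaving out 1 library gave -0.80 to -0.30 (nuclear) and -0.79 to -0.36 (mitochondrial). In duodenum and jejunum no member passed under any setting. Their nuclear medians were -0.11 and -0.035 with the length trend out, and -0.78 to -0.17 and -0.66 to -0.20 without 1 library; the single mitochondrial members gave 0.38 to 0.76 and -0.86 to -0.11. The length trend out together with WT replicate 1 left out, a setting chosen after seeing the data, gave nuclear medians of 0.042 (duodenum), 0.028 (jejunum) and 0.027 (ileum) and mitochondrial ones of 0.16 (jejunum) and 0.036 (ileum). The cause of these moves was not tested, except that leaving out libraries leaves fewer samples.

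Same-numbered WT and Khk KO libraries did not deviate together (correlations from -0.29 to 0.31), so the numbers were not taken as pairs. With the replicate number as a block (replicate block), 0 ileal members passed in place of 5, and 0.287% of all genes fell there. In liver 56 nuclear-encoded members passed in place of 66, and 5.64% of all genes fell. With the length trend out as well, 1.72% of all genes fell in liver and 0.936% in ileum. The replicate block with the length trend out gave 5 members in liver and 0 in ileum, with nuclear medians of -0.088 (liver), -0.081 (duodenum), -0.0105 (jejunum) and -0.075 (ileum) and mitochondrial medians of 1.15 (liver), -0.068 (jejunum) and -0.059 (ileum).

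With the length trend out, 27 of the nuclear-encoded members in liver had a log2 fold change above 0, up to 0.40, and 49 below. Among the genes that the naming rule takes and that fell in the edgeR fit, those above 0 were Ndufa11 (0.030), Ndufb9 (0.13), Ndufs6 (0.050), Ndufs8 (0.082), Ndufv2 (0.0072), Sdhd (0.11), Uqcrh (0.011), Cox6a1 (0.021), Cox6b1 (0.045), Cox7c (0.032), Cox8a (0.032), Ndufa4 (0.11), Atp5a1 (0.0090), Atp5c1 (0.086) and Atp5g2 (0.0021). With the replicate block and the length trend out these values, Atp5g2 aside, were Ndufa11 (0.027), Ndufb9 (0.14), Ndufs6 (0.051), Ndufs8 (0.087), Ndufv2 (0.011), Sdhd (0.11), Uqcrh (0.012), Cox6a1 (0.026), Cox6b1 (0.048), Cox7c (0.034), Cox8a (0.038), Ndufa4 (0.11), Atp5a1 (0.0086) and Atp5c1 (0.089).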
